A study of Homo sapiens with 6 samples.

Results

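Epithelial keratins are the intermediate filament proteins of epithelial cells, and 10 of their genes were followed here: KRT5, KRT7, KRT8, KRT14, KRT17, KRT18, KRT19, KRT80, KRT81 and KRT86. The genes were taken as a given list, with no threshold on a measured value, and a probe was assigned to a gene when its sequence matched a protein-coding transcript of that gene without mismatch and in sense. By this rule 8 of the 10 genes were represented, out of 18590 genes with such a probe, and 10 of the 125601 probes on the array belonged to them, 3 of them to KRT8 and 1 to each of the others, while KRT18 and KRT86 had no such probe. The values came from SKOV3, an established human ovarian cancer cell line. Cells had been given 100 nmol/L 1α,25(OH)2D3, the hormonally active form of vitamin D, or the ethanol vehicle, in both cases for 72 h, and 3 single-color Agilent arrays carry each label. Nothing in the labels says that the 3 arrays of a label came from separate cultures, so every p-value measures the spread between these arrays, which may be technical. In bulk RNA, fewer cells with a transcript and less of it per cell cannot be told apart.

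A keratin filament is built from pairs of 1 type I keratin, which is acidic, and 1 type II keratin, which is neutral to basic, and the genes lie in a type I cluster on chromosome 17 and a type II cluster on chromosome 12, where the type I gene KRT18 also lies beside its partner KRT8. KRT8, KRT18, KRT19 and KRT7 are the keratins of simple epithelia, and KRT7 is a diagnostic marker of ovarian carcinoma. KRT5 and KRT14 form the filaments of basal cells in stratified epithelia, KRT17 is known for its induction in wounds together with KRT6A and KRT16, KRT80 is a widely expressed type II keratin, and KRT81 and KRT86 are hair keratins.

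The share of probes well above background ran from 49.1% to 57.5% over the 6 arrays, and no spot was saturated. CYP24A1, the enzyme that degrades 1α,25(OH)2D3 and a classical target gene of its receptor, serves as a check of the labels, and its signal did not follow them. Its dimmer probe had log2 signals of 2.23, 13.84 and 3.30 under the 1α,25(OH)2D3 label and 14.18, 4.75 and 14.34 under the vehicle label, always in the order of replicates 1, 2 and 3. Its other probe kept the same order of arrays, with 3.88, 14.64 and 4.46 under the first label and 15.16, 8.24 and 15.25 under the second. High CYP24A1 was thus found on 1 array labelled 1α,25(OH)2D3 and on 2 labelled vehicle. This direction between the labels opposes the one the study describes for its treatment, and whether labels were exchanged between arrays was not tested. Arrays were therefore called by their labels throughout, each direction is one between labels, and no group was formed from the CYP24A1 signal. The slide divides the arrays too, since replicates 1 and 2 of the 1α,25(OH)2D3 label lay on one slide and the other 4 arrays on a second one. Defining markers of the line were present in part. Of 8 ovarian carcinoma and SKOV3 markers with a probe, 7 were above background on all 6 arrays, among them PAX8 and ERBB2, while CDH1, which encodes E-cadherin, was above background on 1 array. MUC16, the tumour marker CA125, had the smallest p of this list, with a log2 difference of -0.71 (SE 0.20, adjusted p = 0.7015 in limma). Most of the list ran the other way: of the 7 genes tested 2 had a difference below 0 and 5 above 0, with a median of 0.21. Of 6 fibroblast markers with a probe, COL3A1, DCN and PDGFRA were above background on 0 arrays, LUM on 1, COL1A1 on 3 and COL1A2 on 5. Of 4 endothelial markers, PECAM1, VWF and CDH5 were above background on all 6 arrays and KDR on 0. All 5 leukocyte markers were above background on all 6, among them CD68, with a log2 difference of -1.12 (SE 0.39). Over the 5 leukocyte markers the difference was below 0 for 2 and above 0 for 3, with a median of 0.095. Of the mesothelial markers UPK3B and LRRN4 were above background on all 6 arrays and CALB2 on 2. The summed level of the leukocyte list was 10.21 to 10.59 on the log2 scale under the 1α,25(OH)2D3 label and 10.57 to 10.96 under the vehicle label, and its part in the keratin results was not tested.

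What a keratin probe can measure depends on its sequence, because some genes of a cluster are nearly alike in places. The probes of KRT14 and KRT17 are shown because their values moved together. Both lie in coding sequence of chromosome 17 (hg38, minus strand), the KRT14 probe in exon 4 of 8 (chr17:41583761-41583820) and the KRT17 probe in exon 6 of 8 (chr17:41620724-41620783). Each is set above the stretch of the other gene that comes nearest to it, at chr17:41621594-41621653 in KRT17 and at chr17:41583300-41583359 in KRT14, with the bases that differ in capitals.
KRT14 probe: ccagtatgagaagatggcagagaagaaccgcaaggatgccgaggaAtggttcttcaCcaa
KRT17 at the same place: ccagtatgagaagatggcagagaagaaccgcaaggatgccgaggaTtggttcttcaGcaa
KRT17 probe: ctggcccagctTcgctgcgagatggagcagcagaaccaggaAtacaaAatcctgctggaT
KRT14 at the same place: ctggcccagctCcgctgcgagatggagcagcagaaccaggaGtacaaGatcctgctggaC
The KRT14 probe shared 58 of 60 bases with KRT17, and the KRT17 probe shared 56 of 60 with KRT14 and 53 of 60 with KRT16. Transcribed pseudogenes also came near. The KRT14 probe shared 57 of 60 bases with KRT17P1 and with KRT17P2. The KRT17 probe shared 55 of 60 with each of KRT17P1, KRT17P2 and KRT16P6. How much of either signal came from these other transcripts was not tested.

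KRT18 and KRT86 were represented only by probes with 2 or 3 mismatches. For KRT18 these are probes that match its processed pseudogenes KRT18P56 on chromosome 5 and KRT18P51 on chromosome 4 without mismatch. They are shown because they come close to the KRT18 transcript, for which no exact probe was found. The coding stretch of KRT18 below the first spans a splice junction between chr12:52950358 and chr12:52950754, and that below the second lies at chr12:52951793-52951852. Both are on the plus strand of hg38, and capitals again mark the bases that differ.
KRT18P56 probe: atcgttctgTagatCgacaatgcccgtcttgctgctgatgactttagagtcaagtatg
KRT18 at the same place: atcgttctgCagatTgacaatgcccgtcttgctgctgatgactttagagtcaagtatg
KRT18P51 probe: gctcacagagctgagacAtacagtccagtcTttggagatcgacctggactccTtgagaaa
KRT18 at the same place: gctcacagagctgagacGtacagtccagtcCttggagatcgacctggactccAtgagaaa
For KRT86 the nearest probes with a named gene match the hair keratin KRT83 without mismatch.
The signals of these probes are given below as those of the probes, not of KRT18 or KRT86.

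All 10 keratin probes were well above background on all 6 arrays and were tested between the labels with limma together with every other probe that passed the filter on background, 63336 in all. After Benjamini-Hochberg adjustment 0 keratin probes passed, and the background share was 0% of all probes tested, with adjusted p-values of the keratin probes from 0.7015 to 0.855. At an unadjusted p under 0.05 there was 1 keratin probe, that of KRT19, which was lower under the 1α,25(OH)2D3 label. Over all probes tested 6.77% passed this threshold, 4.00% higher and 2.76% lower, so 1 of 10 is near the background. The log2 difference, 1α,25(OH)2D3 label minus vehicle label, was below 0 for 8 of the 10 probes and above 0 for those of KRT5 and KRT81, with a median of -0.25. Over all probes tested 50.6% of the differences were below 0 and the median was -0.0037. The labelled groups did not overlap for 1 keratin probe, that of KRT81, against 12.2% of all probes tested. A p that misses the threshold does not show that the labels were alike, and 3 arrays a label limit the precision.

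**Figure D1:**
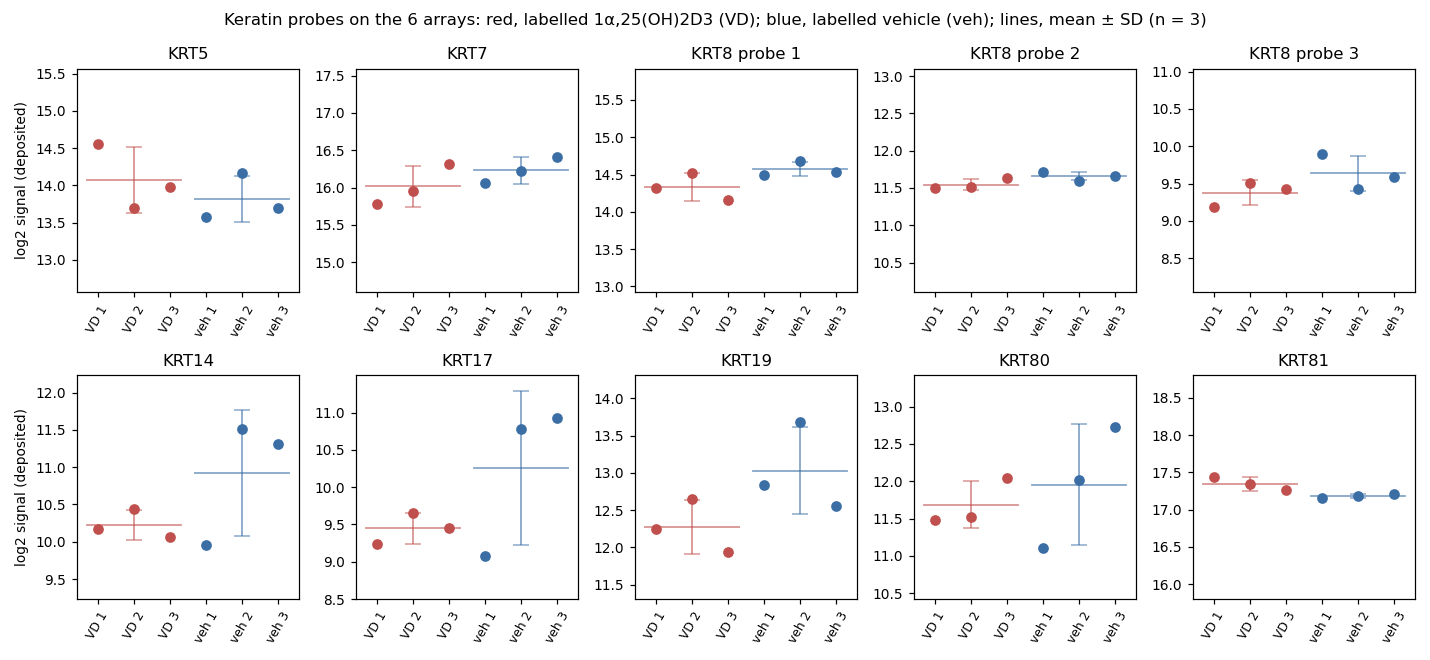
Deposited log2 signal (y axis, 3 log2 units high in each panel) of the 10 keratin probes on the 6 arrays (x axis); points are arrays, red for the 1α,25(OH)2D3 label and blue for the vehicle label, and lines are the mean ± SD (n = 3). The groups overlap in every panel but that of KRT81, and KRT14 and KRT17 stand highest on the arrays labelled vehicle replicates 2 and 3.

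Among the keratins of simple epithelia, KRT19, a small type I keratin without a tail domain, had the lowest unadjusted p. Its probe lies in the last of 6 exons, in the 3′ UTR, at chr17:41523666-41523725 on the minus strand. The log2 signal was 12.24, 12.65 and 11.93 under the 1α,25(OH)2D3 label and 12.84, 13.68 and 12.56 under the vehicle label. Vehicle replicates 2 and 1 were the top 2 arrays, but 1α,25(OH)2D3 replicate 2 stood above vehicle replicate 3, so the groups overlapped. The means were 12.27 ± 0.36 and 13.03 ± 0.58 (SD, n = 3), a log2 difference of -0.75 (SE 0.32) or 0.593-fold, with an unadjusted p under 0.05 and adjusted p = 0.7015 in limma. The difference was -1.10 with the slide as a block and the same within the second slide, the one slide that holds both labels, and neither had p under 0.05. It ranged from -0.43 without vehicle replicate 2 to -0.99 without vehicle replicate 3, and of these 6 fits p was under 0.05 only without 1α,25(OH)2D3 replicate 2 or vehicle replicate 3. A second KRT19 probe, which matches a transcript that keeps intron sequence at chr17:41525528-41525587, read 8.49, 8.89 and 8.17 under the first label and 9.12, 9.55 and 8.59 under the second. It put the 6 arrays in the same order as the probe in the last exon, with a log2 difference of -0.57 (SE 0.29, adjusted p = 0.7015 in limma).

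KRT8, the type II partner of KRT18, did not pass either threshold, and the labels overlapped. Its brightest probe, in the 3′ UTR of the last exon at chr12:52897242-52897301 on the minus strand, had log2 signals of 14.32, 14.52 and 14.16 under the 1α,25(OH)2D3 label and 14.50, 14.68 and 14.54 under the vehicle label. Replicates 3 and 1 of the 1α,25(OH)2D3 label were the lowest, but its replicate 2 stood above vehicle replicate 1. The log2 difference was -0.24 (SE 0.16, adjusted p = 0.718 in limma), and -0.42 with the slide as a block or within the second slide. The other KRT8 probes match exons of KRT8 transcripts that start within the neighbouring KRT18 locus on the opposite strand. No base of these probes lies in an exon of the canonical KRT8 transcript. The dimmer of them, at chr12:52948790-52949476, joins exons 2 and 3 of a transcript of 3 exons, the only protein-coding one it matches. The brighter one, at chr12:52949457-52949516, is antisense to KRT18 and shares 59 of 60 bases with an unrelated noncoding transcript. It also shares 58 of 60 with PPP1R1C, 56 of 60 with GPAT4-AS1 and with PTPN14, and 55 of 60 with CLTCL1. How much of its signal came from KRT8 was not tested. The log2 differences were -0.11 for this probe and -0.26 for the dimmer one, with the arrays in another order.

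The pseudogene probes that resemble KRT18 were lower under the 1α,25(OH)2D3 label without overlap. The KRT18P51 probe read 10.16, 10.07 and 10.10 against 10.46, 10.88 and 10.72 on the log2 scale. Every array labelled vehicle stood above every array labelled 1α,25(OH)2D3, a log2 difference of -0.57 (SE 0.16, unadjusted p under 0.05 and adjusted p = 0.7015 in limma). Signals of the KRT18P56 probe were 13.14, 13.21 and 12.83 against 13.31, 13.65 and 13.33, with a log2 difference of -0.37 (SE 0.18), which did not pass that threshold. Groups lower under this label without overlap made up 5.18% of all probes tested. Whether these probes bound RNA of KRT18 or of the pseudogenes was not tested. A KRT18 probe in retained intron sequence, at chr12:52951669-52951728, had overlapping groups and a log2 difference of 0.14.

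KRT7, the type II keratin of glandular epithelia, has its probe in the 3′ UTR of the last exon at chr12:52248806-52248865 on the plus strand. It read 15.78, 15.95 and 16.32 under the 1α,25(OH)2D3 label and 16.06, 16.22 and 16.41 under the vehicle label. The array labelled 1α,25(OH)2D3 replicate 3 was second only to vehicle replicate 3, and both lie on the second slide. The log2 difference of -0.21 (SE 0.19, adjusted p = 0.773 in limma) turned to 0.092 with the slide as a block and within the second slide, so it has no settled direction. Other probes match KRT7 transcripts without a coding sequence, and 6 are in this class, of which 3 passed the filter on background. The brightest of these, in a retained intron at chr12:52247981-52248040, was 11.83, 11.82 and 11.41 against 11.23, 11.25 and 11.43. It was highest on replicates 1 and 2 of the 1α,25(OH)2D3 label, the arrays of the first slide, with a log2 difference of 0.38 (SE 0.18, adjusted p = 0.7015 in limma). The probe at chr12:52243352-52243411 ran the other way, with 7.29, 8.21 and 7.68 against 7.99, 8.24 and 9.56, and a difference of -0.87 (SE 0.42, adjusted p = 0.7015). The antisense gene KRT7-AS had log2 signals of 6.70, 6.90 and 7.14 against 6.85, 6.92 and 8.03. Vehicle replicate 3 was thus the highest array for the KRT7 mRNA probe, for KRT7-AS and for 2 of the 3 tested probes of its transcripts without a coding sequence, the retained intron being the exception.

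Of the keratins of stratified epithelia, KRT14 and KRT17 had both their lowest and their highest array under the vehicle label. KRT14, the type I keratin of basal cells, had log2 signals of 10.17, 10.44 and 10.06 under the 1α,25(OH)2D3 label and 9.95, 11.51 and 11.31 under the vehicle label. Vehicle replicate 1 was the lowest array, and vehicle replicates 2 and 3 were the highest. The log2 difference was -0.70 (SE 0.39, adjusted p = 0.702 in limma), and -0.86 with the slide as a block or within the second slide. KRT17 had 9.24, 9.66 and 9.45 against 9.07, 10.78 and 10.92, again with vehicle replicate 1 lowest and replicates 2 and 3 highest. Its log2 difference was -0.81 (SE 0.46, adjusted p = 0.703 in limma), with the same value, -0.81, in both slide analyses. Without vehicle replicate 1 the differences were -1.18 for KRT14 and -1.40 for KRT17, each with an unadjusted p under 0.05 in limma. In that fit 6469 of all 63336 probes tested passed this threshold. Without vehicle replicate 2 the KRT14 difference was -0.40, and without replicate 3 that of KRT17 was -0.48. A probe for retained intron sequence of KRT14, at chr17:41582567-41582626, did not share the pattern: its values were 8.68, 8.80 and 8.01 against 8.20, 8.32 and 7.85, and vehicle replicate 3 was its lowest array.

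KRT16 and KRT6A, the keratins known to be induced with KRT17 in wounded epithelium, were highest on the same arrays. KRT16 had the largest difference of the other keratins tested, with log2 signals of 4.97, 5.97 and 4.98 under the 1α,25(OH)2D3 label and 5.78, 8.21 and 8.05 under the vehicle label. The arrays labelled vehicle replicates 2 and 3 stood over 2 log2 units above every other array. KRT16 was named for a small p between the labels, and being lower under the 1α,25(OH)2D3 label favours vehicle arrays at the top. Its log2 difference was -2.04 (SE 0.63, unadjusted p under 0.05 and adjusted p = 0.7015 in limma), -1.17 with normexp background correction and -2.37 with the slide as a block, where the unadjusted p was above 0.05, as it was without 1α,25(OH)2D3 replicate 3, with a difference of -1.87. KRT6A, the type II partner of KRT16, was named after its values were seen. It read 5.79, 6.13 and 5.48 against 5.41, 10.67 and 6.99, so that vehicle replicate 2 lay far above the rest and vehicle replicate 3 followed. Its difference was -1.89 (SE 1.15, adjusted p = 0.706 in limma), and -0.40 without vehicle replicate 2. Likeness of sequence differed between these probes: the KRT16 probe shared 47 of 60 bases with KRT14 and with KRT17, the KRT6A probe shared 26 of 60 with each of KRT14, KRT16 and KRT17 and 52 of 60 with KRT6C.

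Vehicle replicates 2 and 3 were the top 2 arrays for 3 of the 10 keratin probes, those of KRT14 and KRT17 and the brightest of KRT8, against 9.68% of all probes tested, which is 6129 probes. This count was made after the values were seen. These arrays share a label and a slide and differ in CYP24A1, which was 4.75 on vehicle replicate 2 and 14.34 on vehicle replicate 3 by the dimmer probe. Vehicle replicate 1, where KRT14, KRT17, KRT80 and KRT6A were lowest, also had high CYP24A1, at 14.18.

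**Figure D2:**
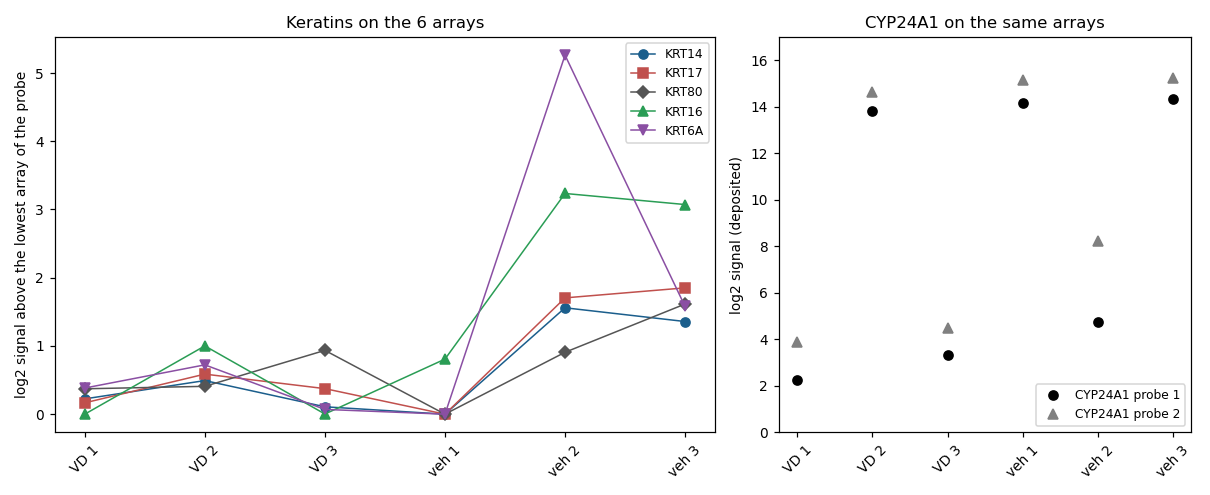
Left, log2 signal of 5 keratin probes on each array (x axis), drawn as log2 units above the lowest array of the same probe; right, deposited log2 signal of both CYP24A1 probes on the same arrays. KRT14, KRT17, KRT16 and KRT6A are highest on the arrays labelled vehicle replicates 2 and 3, whereas CYP24A1 is high on vehicle replicates 1 and 3 and 1α,25(OH)2D3 replicate 2.

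KRT5, the type II partner of KRT14 in basal cells, did not show this pattern. The log2 signal of its 3′ UTR probe, at chr12:52514838-52514897 on the minus strand, was 14.56, 13.69 and 13.98 under the 1α,25(OH)2D3 label and 13.57, 14.16 and 13.70 under the vehicle label. The highest array was 1α,25(OH)2D3 replicate 1, followed by vehicle replicate 2, and the groups overlapped. The log2 difference was 0.26 (SE 0.26, adjusted p = 0.790 in limma) and fell to 0.02 without 1α,25(OH)2D3 replicate 1. With the slide as a block or within the second slide it was 0.17. A probe in a retained intron of KRT5, at chr12:52515852-52515911, read 7.27, 6.89 and 7.16 against 6.77, 7.42 and 6.14, with vehicle replicate 2 highest and a difference of 0.34.

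KRT80, a type II keratin, was read by 10 spots on each array, and the SD between these spots was 0.025 to 0.093 on the log2 scale. Its probe lies in the 3′ UTR at chr12:52169701-52169760 on the minus strand. Averaged over spots, the signal was 11.48, 11.52 and 12.05 under the 1α,25(OH)2D3 label and 11.11, 12.02 and 12.73 under the vehicle label. The spread between arrays, 1.61 log2 units or 3.06-fold, was above that between spots of an array, which bears on spot error alone, and the lowest and the highest array were both labelled vehicle. The log2 difference of -0.27 (SE 0.39, adjusted p = 0.855 in limma) turned to 0.0945 with the slide as a block and within the second slide, and to 0.12 without vehicle replicate 3. Without vehicle replicate 1 it was -0.69, so its direction rests on single arrays.

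KRT81, a hair keratin, had the only keratin probe without overlap between labels. It lies in the 3′ UTR at chr12:52285915-52285974 on the minus strand, opposite an intron of the KRT86 gene model, which spans this locus. The log2 signal was 17.44, 17.34 and 17.26 under the 1α,25(OH)2D3 label and 17.16, 17.19 and 17.21 under the vehicle label. All 3 arrays of the first label were above those of the second, but by little: the log2 difference was 0.16 (SE 0.14, adjusted p = 0.767 in limma). Scanner signals scaled to the 75th percentile gave -0.0028, so the direction depends on the normalization, and the slide as a block gave 0.07. Groups higher under this label without overlap made up 7.03% of all probes tested.

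The probes that resemble KRT86 gave no common direction. The brighter KRT83 probe, with 2 mismatches to KRT86, had 10.61, 11.05 and 10.40 under the 1α,25(OH)2D3 label and 10.91, 11.59 and 11.47 under the vehicle label, a log2 difference of -0.63 (SE 0.25, unadjusted p under 0.05 and adjusted p = 0.7015 in limma). Vehicle replicates 2 and 3 were the highest arrays, and 1α,25(OH)2D3 replicate 2 stood above vehicle replicate 1. KRT83 was also among the other keratins named for a small p. A lower signal under the 1α,25(OH)2D3 label favours vehicle arrays at the top. Another KRT83 probe, with 3 mismatches to KRT86, was much dimmer, with 4.84, 5.11 and 4.60 against 4.79, 5.36 and 5.45. It gave -0.35 (SE 0.23), with an unadjusted p above 0.05 in limma. How much of the brighter signal came from KRT83 or KRT86 was not tested. A probe with 2 mismatches to the 3′ end of KRT86 and no exact match to a transcript gave 0.28 (SE 0.24).

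**Figure D3:**
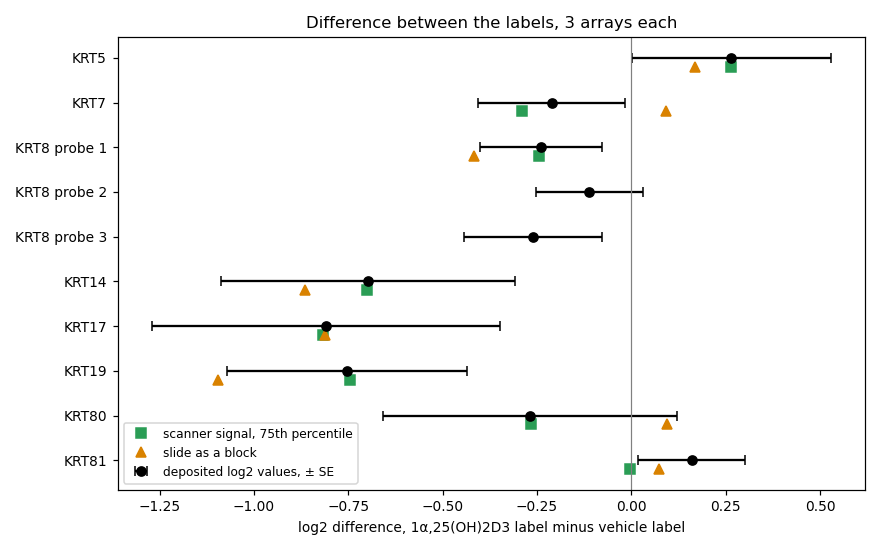
Log2 difference between the labels (x axis, 1α,25(OH)2D3 minus vehicle, 3 arrays each) for the 10 keratin probes (y axis). Black points are the deposited values with their SE, and for the brightest probe of each gene green squares are scanner signals scaled to the 75th percentile and orange triangles the fit with the slide as a block; KRT7 and KRT80 cross 0 with the slide as a block, and KRT81 falls to -0.0028 with the scaled scanner signals.

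The keratin probes differed widely in how far they spread over the 6 arrays, whatever the labels. The range, highest minus lowest array, was 1.85 log2 units for KRT17 and 1.75 for KRT19, which 96.3% and 95.4% of all probes tested fell short of. KRT80 with 1.61 and KRT14 with 1.56 lay above 94.0% and 93.2% of them. KRT5 followed with 0.99 (74.3%), KRT7 with 0.63 (42.8%), the brightest KRT8 probe with 0.53 (30.9%) and a dimmer one with 0.71 (51.8%). At the other end were KRT81, whose range of 0.28 exceeded that of 5.07% of the probes tested, and the remaining KRT8 probe with 0.22 (2.05%). The median range of the 10 probes was 0.85, against 0.69 over all probes tested. The most variable members were thus 3 type I keratins, KRT14, KRT17 and KRT19, and 1 type II keratin, KRT80, and the widest ranges of KRT14, KRT17 and KRT80 lay within the vehicle label.

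**Figure D4:**
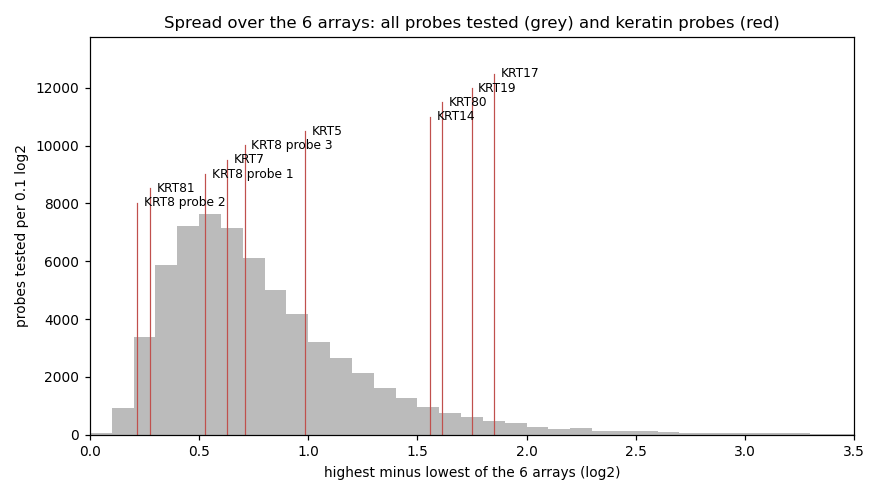
Number of probes tested per 0.1 log2 unit (y axis) by their range over the 6 arrays (x axis, highest minus lowest log2 signal) in grey, with the 10 keratin probes as red lines whose heights carry no value. KRT14, KRT80, KRT19 and KRT17 lie in the right tail, between 1.56 and 1.85, and KRT81 and a KRT8 probe lie at the left edge.

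Of 45 other keratin genes 40 had a probe and 18 were tested. None passed after adjustment in limma. At an unadjusted p under 0.05 there were 0 higher and 3 lower under the 1α,25(OH)2D3 label, namely KRT16, KRT83 and KRT78. Over all probes tested the shares were 4.00% higher and 2.76% lower. KRT83 was counted by its brighter probe alone. KRT78, a type II keratin of differentiated squamous epithelium, had 9.65, 9.86 and 10.41 against 10.82, 10.63 and 10.75, with no overlap. Its log2 difference was -0.76 (SE 0.22, adjusted p = 0.7015 in limma), and -0.32 with the slide as a block. The median difference over the 18 was -0.03. Of the 40 with a probe, 15 were above background on 0 arrays, among them KRT20 of the gut and KRT1 and KRT2 of the epidermis. Another 17 were above background on all 6 arrays, among them KRT73, KRT85, KRT4 and KRT3. Their mean log2 signals under the vehicle label were 12.10, 10.54, 9.47 and 8.60.

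Desmosomes anchor keratin filaments at the cell membrane, and 15 of 20 genes of desmosomes and keratin linkers were tested. In limma 0 passed after adjustment, and with an unadjusted p under 0.05 there were 1 higher and 1 lower, beside 6.77% of all probes tested in either direction. Envoplakin, EVPL, which links keratins to the cornified envelope, read 13.85, 13.67 and 13.33 against 13.11, 13.17 and 13.24, a log2 difference of 0.44 (SE 0.18), and 0.16 with the slide as a block. Plakophilin 3, PKP3, an armadillo protein of the desmosomal plaque, had 7.54, 7.34 and 7.93 against 7.89, 8.996 and 8.39, a difference of -0.82 (SE 0.30). Vehicle replicates 2 and 3 were the highest, as they were for 9.68% of all probes tested. PKP3 was named for a small p between the labels, and a difference below 0 favours vehicle arrays at the top. The PKP3 difference was -0.49 with the slide as a block and -0.53 without vehicle replicate 2. Plakophilin 1, PKP1, had a difference of 0.74 (SE 0.32), with an unadjusted p just above 0.05, and 0.43 without vehicle replicate 1 or 0.29 with normexp background correction. The median difference over the list was -0.08.

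Among 11 other intermediate filament genes tested, 0 passed after adjustment and 1 had an unadjusted p under 0.05, a share near the 6.77% of all probes tested. This was SYNC, encoding syncoilin, with 7.60, 7.41 and 7.47 against 7.72, 7.87 and 8.23 and a log2 difference of -0.45 (SE 0.18, adjusted p = 0.7015 in limma). LMNA, which encodes the lamins A and C of the nuclear envelope, differed by -0.42 (SE 0.25) and NES, encoding nestin, by 0.48 (SE 0.29). The NES value fell to 0.14 without vehicle replicate 1, and that of LMNA ran from -0.27 to -0.66 as vehicle replicate 2 or 3 was left out. The median over the 11 was 0.06. Of the epithelial transcription and splicing factors 12 were tested and 0 passed, with or without adjustment in limma. Those with the smallest p were GRHL1, a grainyhead-like factor, at -0.40 (SE 0.21), OVOL2 at -0.29 (SE 0.18) and EHF, an ETS factor, at 1.35 (SE 0.88). GRHL1 moved to -0.08 with the slide as a block and OVOL2 to -0.13 without vehicle replicate 2. EHF was 8.06 and 7.93 on replicates 1 and 3 of the 1α,25(OH)2D3 label and 4.54 to 6.15 on the other 4, and its difference ran from 0.75 without 1α,25(OH)2D3 replicate 1 to 2.51 without replicate 2. The median over the 12 was -0.03. Of the cornification genes 8 were tested and 0 passed, with or without adjustment. S100A7 differed by -0.31 (SE 0.16), and by -0.14 with the slide as a block. FLG, encoding filaggrin, differed by 0.28 (SE 0.16), or 0.09 with normexp background correction, and CDSN, encoding corneodesmosin, by -0.45 (SE 0.30), which turned to 0.0594 with the slide as a block. The median over the 8 was -0.23.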

How the data were processed

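Cy3-labelled RNA of 6 samples was hybridised to single-color Agilent arrays and read with Feature Extraction 10.7.1.1, as the submitters' processing notes name it. The authors deposited spot intensity on a linear scale, with flags for background, and a table of log2 signals, 1 for each probe on each array. Sorted columns of the table differ by at most 0.000913, so it had been quantile normalized, and its rank correlation with the scanner intensity of an array was at least 0.9998. Each column's median was 4.78. Rank correlations between arrays were 0.934 to 0.960. The background correction behind the table is not given in the sources used here, and quantile normalization makes the overall distributions of the arrays equal, which can move probes at the top of the scale.

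The files name no gene for any probe, so all probe sequences were matched to GENCODE release 44 transcripts, and places on hg38 follow from those matches. Noncoding probes could for the same reason not be chosen by name and were chosen by match. A gene with more than 1 probe is represented by its brightest, judged by the mean over the 6 arrays. Y-linked probes are not described. Sequences of the probes that resemble KRT86 are not reported here. Near matches to KRT18 and KRT86 were accepted up to 3 mismatches. For the other keratin probes, likeness to other genes was given as shared bases, without this limit.

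Groups follow the labels. The 63336 probes above background, by the scanner's flag, on the 3 arrays of either label were fitted with limma 3.58.1 in R 4.3.3, without covariate, with Benjamini-Hochberg adjustment over all of them, and the fit was tested on simulated data. Described by name are all members, CYP24A1 and the 3 genes of each gene list with the smallest p. KRT6A, the keratins named only for being above background or not, and single cell type markers were named after their values were seen. The members and lists were chosen with earlier results of these data known. The alternatives were 75th percentile scaling or quantile normalization of the scanner signal, normexp with an offset of 50, 2 other filters, a block for the replicate number or for the slide, the second slide alone, the methods' t-test, other probes of a gene, and each array left out.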

Additional observations from a re-analysis of the deposited data

How the results depend on the processing

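The number of keratin probes past the adjusted threshold was 0 under every alternative run, and the smallest adjusted p of a keratin probe in any of them was 0.293. At an unadjusted p under 0.05 the count of 1 became 0 with normexp background correction and without a filter on background. With the slide as a block it was also 0. It lay between 0 and 3 when an array was left out. The 3 were KRT14, KRT17 and KRT80 without vehicle replicate 1, where 6469 of all 63336 probes tested passed the same threshold. KRT19 itself lost this call under 9 of 15 alternatives, among them the methods' t-test, which called KRT81 in its place, and among the other probes named for it the call was lost under 9 for EVPL and SYNC, 7 for PKP3, 6 for KRT83, 4 for KRT16, 2 for KRT78 and 1 for the KRT18P51 probe. Over all probes the unadjusted count of 4286 was 7029 without a filter, 2617 with the slide as a block and 2141 within the second slide, and 1561 (without 1α,25(OH)2D3 replicate 1) to 9655 (without 1α,25(OH)2D3 replicate 3) when an array was left out. The adjusted count was 0 to 4 when an array was left out, with 4 without vehicle replicate 1, and 0 under the other alternatives. Of 122 recomputed keratin differences 6 changed sign: KRT7 became 0.092 and KRT80 0.0945 both with the slide as a block and within the second slide, KRT80 lay between -0.69 and 0.12 when an array was left out, and KRT81 became -0.0028 with 75th percentile scaling. Of 268 recomputed differences of other named genes 2 changed sign, CDSN with 0.0594 in both slide analyses. The causes were not tested. Replicate numbers of the labels did not pair the arrays: deviations from the group means correlated with r = 0.124, 0.109 and -0.0187 in same-numbered pairs. The replicate block gave 4737 probes at an unadjusted p under 0.05, 1 of them a keratin probe, and 0 after adjustment. Since each replicate number holds 1 array of each label, this block cannot change a mean difference. It can change p, and for KRT19 the unadjusted p in limma was 0.0061 with it and 0.0467 without. The adjusted p of KRT19 with the block was 0.646 in limma. As one slide holds arrays of the 1α,25(OH)2D3 label only, the slide as a block and the second slide alone rest on 1 array of that label against 3. On no array did more than 57.5% of probes stand well above background, and 3 arrays a label limit the precision.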
